A study of Mus musculus with 32 samples.

Results

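Chromatin accessibility was compared between hindlimb cells that carried the Etv2 reporter and hindlimb cells from which Etv2 had been deleted, both from mouse embryos labelled E10.5. ATAC-seq, in which a transposase cuts DNA that nucleosomes do not protect, had been run on 32 limb bud samples, and 5 of them entered this comparison. The 3 HL EYFP+ samples held EYFP+ cells from hindlimb buds of Etv2-EYFP embryos, bred from CD1 females, after removal of CD31+, TIE2+ and CD45+ cells, and EYFP there was driven by Etv2 promoter sequence and can outlast Etv2 mRNA. The 2 CKO samples (label Etv2CKO_posteriorHL) came from HoxB6-Cre Tg/+; Etv2 fl/- embryos, in which Cre acts in lateral plate mesoderm that includes the whole hindlimb precursor and part of the forelimb. The study calls the CKO cells unsorted hindlimb cells in one place and posterior cells in another, so sort, domain, strain, reporter and genotype all differ between the groups and cannot be told apart. The legend to the study's ATAC-seq figure states that each sample pooled several embryos, fewer for CKO than for wild type. It does not name the EYFP+ samples in that statement. Pool size may thus also differ between the groups, and p-values measure the spread between these pooled samples.

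ETV2 is an ETS-family transcription factor known for starting the endothelial and blood lineages. The limb bud at this stage is mostly mesenchyme covered by ectoderm, patterned from anterior to posterior by SHH and from proximal to distal by retinoic acid and FGF signals. LIM-homeodomain proteins such as LHX2 and LHX9 act in its distal mesenchyme, whereas MEIS and PBX proteins and retinoic acid mark its proximal side.

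The data were 1 list of peak summits per sample, each summit being the position where transposase cuts piled up highest within a peak. Every list was cut to its 25000 most significant summits, and 200-bp regions were placed on them. A region counted as held by a list whose nearest summit was no more than 200 bp from its centre. Of 31250 regions held by at least 2 of the 5 lists, 566 were set aside because their sequence resembled tandem satellite repeats (460 regions), the mitochondrial genome (10) or words shared with those satellites (96). Among the 30684 regions compared, 1752 (5.71%) were in all 3 HL EYFP+ lists and neither CKO list, and are called HL EYFP+-only. Another 2421 (7.89%) were in both CKO lists and no HL EYFP+ list, and are called CKO-only. All 5 lists held 10404 regions. A region that a list lacks was not among its 25000 summits, which does not make it closed chromatin.

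These 10 regions show what the comparison found at the level of sequence, and they are printed here for the short words described further on. All are on the + strand of GRCm38, 5′ to 3′, with the word that each region illustrates in capitals. The first 4 were HL EYFP+-only and carry a homeodomain word, TAATTA for LIM-homeodomain proteins or TAATTG or TAATGG for ISL1-type proteins, as written or as its reverse complement.
Kif26b intron, chr1:178821139-178821338: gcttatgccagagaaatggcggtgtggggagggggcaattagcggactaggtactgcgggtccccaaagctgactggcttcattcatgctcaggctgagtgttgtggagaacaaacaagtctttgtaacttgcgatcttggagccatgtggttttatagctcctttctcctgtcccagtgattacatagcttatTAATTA
Tfap2b, 125.4 kb from its start, chr1:19337322-19337521: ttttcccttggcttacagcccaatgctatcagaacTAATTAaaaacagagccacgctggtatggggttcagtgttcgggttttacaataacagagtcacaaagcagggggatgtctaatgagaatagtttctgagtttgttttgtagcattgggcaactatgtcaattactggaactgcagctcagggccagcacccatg
Grem1, within a Fmn1 intron 117.6 kb from the Grem1 start, chr2:113640983-113641182: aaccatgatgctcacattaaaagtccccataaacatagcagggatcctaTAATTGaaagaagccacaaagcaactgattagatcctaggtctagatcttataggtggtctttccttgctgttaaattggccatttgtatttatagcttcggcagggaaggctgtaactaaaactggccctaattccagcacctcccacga
Lhx9 intron, chr1:138837800-138837999: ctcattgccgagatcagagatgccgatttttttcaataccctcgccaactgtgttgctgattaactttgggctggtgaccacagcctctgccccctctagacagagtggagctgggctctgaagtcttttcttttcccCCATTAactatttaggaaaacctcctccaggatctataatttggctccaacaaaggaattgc

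The next 5 were CKO-only. On either strand, the word in Aldh1a2 and Celf2 is TGACAG, which MEIS and TGIF proteins bind. Near Bmp2 it is AGATAA or TGATAA, the word of GATA factors. In Plxna2 it is AGGTCA, which nuclear receptors such as those for retinoic acid bind. In Met it is TGATTNAT, the word of PBX proteins.
Aldh1a2 intron, chr9:71230139-71230338: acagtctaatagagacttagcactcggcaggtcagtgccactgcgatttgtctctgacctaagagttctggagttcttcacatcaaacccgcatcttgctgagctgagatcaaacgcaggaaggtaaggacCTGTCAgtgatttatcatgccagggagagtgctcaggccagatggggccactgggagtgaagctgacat
Celf2 intron, chr2:6985807-6986006: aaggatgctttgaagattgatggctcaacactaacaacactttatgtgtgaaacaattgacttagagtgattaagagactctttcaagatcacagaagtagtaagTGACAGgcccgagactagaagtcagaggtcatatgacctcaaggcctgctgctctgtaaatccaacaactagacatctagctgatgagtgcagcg
Bmp2, 240.9 kb upstream, chr2:133311132-133311331: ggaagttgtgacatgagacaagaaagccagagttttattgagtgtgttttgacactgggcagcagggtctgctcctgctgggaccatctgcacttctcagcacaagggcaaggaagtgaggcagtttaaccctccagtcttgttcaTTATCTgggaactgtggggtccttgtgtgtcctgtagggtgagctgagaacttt
Plxna2 intron, chr1:194737790-194737989: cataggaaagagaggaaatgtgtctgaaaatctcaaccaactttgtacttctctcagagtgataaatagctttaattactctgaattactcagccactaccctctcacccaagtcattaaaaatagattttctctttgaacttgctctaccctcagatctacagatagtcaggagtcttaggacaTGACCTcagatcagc
Met intron, chr6:17545627-17545826: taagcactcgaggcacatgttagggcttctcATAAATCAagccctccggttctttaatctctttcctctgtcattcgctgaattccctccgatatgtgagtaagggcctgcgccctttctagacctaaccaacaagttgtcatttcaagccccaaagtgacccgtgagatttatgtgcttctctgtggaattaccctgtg

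The last is the Hoxb6 promoter, also CKO-only, with a match to the ETV2 word, which stands for AAGGAAAT, AAGGAAGT, CAGGAAAT, CAGGAAGT, GAGGAAAT or GAGGAAGT on either strand.
Hoxb6 promoter, chr11:96298910-96299109: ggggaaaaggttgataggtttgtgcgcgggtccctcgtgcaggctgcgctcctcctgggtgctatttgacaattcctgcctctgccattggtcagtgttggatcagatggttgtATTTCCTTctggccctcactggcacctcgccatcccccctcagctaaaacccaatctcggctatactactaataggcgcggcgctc

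The Etv2 gene itself was checked first. No region near it was compared, since only HL EYFP+ 3 had a summit within 1 kb of the Etv2 start, at rank 22558. Within the gene and 5 kb around it, HL EYFP+ 2 had 1 summit at rank 17726, and HL EYFP+ 1 and both CKO lists had none even when whole. Summits at Etv2 were thus listed in 2 HL EYFP+ samples and in no CKO sample, and the lists do not hold Etv2 expression or the deletion. Shh, the posterior signal of the limb bud, had no summit within 1 kb of its start in any of the 5 whole lists. The 1 region compared that lay nearest to Shh, at −156420 bp from its start, ranked 5125 and 8569 in the CKO lists and was missing from HL EYFP+ 1 and ranked 18902 and 21079 in the other HL EYFP+ lists (adjusted p = 0.0575, limma).

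Limb mesenchyme promoters were listed in both groups, and the defining markers of other cell types checked here were not. Of 18 limb mesenchyme genes, 9, 9 and 12 had a summit within 1 kb of a start in the HL EYFP+ lists and 12 and 11 in the CKO lists, and Prrx1, Twist1, Msx1, Fgf10 and Tbx18 were among those in all 5. Of 26 endothelial genes the counts were 5, 5 and 6 against 4 and 5, and Pecam1 (CD31), Tek (TIE2), Cdh5, Tie1 and Emcn had none in any list. Blood genes gave 2, 3 and 2 against 2 and 2 of 16, with Gata1, Klf1 and Ptprc (CD45) at 0. Muscle progenitor genes gave 6, 4 and 4 against 3 and 4 of 14, ectoderm genes 4, 3 and 3 against 2 and 2 of 21, and neural genes 1, 5 and 2 against 6 and 4 of 15. Of the defining markers Pax3, Epcam and Sox10 none had a promoter summit in any list. Without mitochondrial summits the deposited lists held 32245, 41281 and 34360 summits for HL EYFP+ and 34493 and 28366 for CKO, and the value at rank 25000 was 3.38, 6.37 and 6.61 against 4.35 and 3.20 (−log10 q), the same on both sides of the limit to the digits printed.

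Libraries of the same group shared more of their regions than libraries of different groups. The Jaccard index, the regions in both lists divided by the regions in either, was 0.489 to 0.539 among the 3 HL EYFP+ lists, 0.557 between the 2 CKO lists and 0.410 to 0.467 between the groups. HL EYFP+ 1 was the least like the CKO lists, at 0.410 and 0.415. The excess within groups averaged 0.0861, and its p of 0.1 (exact permutation test, two-sided) is the smallest that 3 against 2 samples allow.

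The position of a region relative to the ranking of each list was turned into a rank score, which is 1 for the first summit, falls towards 0 for the last one kept and is 0 when the region is not listed. In limma across all 30684 regions, 397 (1.29%) scored higher in HL EYFP+ and 903 (2.94%) higher in CKO at an adjusted p under 0.05, against 2171 and 3234 at an unadjusted p under 0.05. Of the 1752 HL EYFP+-only regions 280 were among them, and of the 2421 CKO-only regions 652. Since the same ranks defined the direction and entered the fit, these calls do not add to it. The same holds for each adjusted p given below for an HL EYFP+-only or CKO-only region, where every list without it scores 0. Regions held by all 5 lists gave 42 calls higher in HL EYFP+ and 22 higher in CKO. No call remained when HL EYFP+ 1, HL EYFP+ 2, CKO 1 or CKO 2 was left out, whereas the calls numbered 369 and 455 without HL EYFP+ 3. With 1 CKO sample, that sample is assumed to vary like the others.

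**Figure D1:**
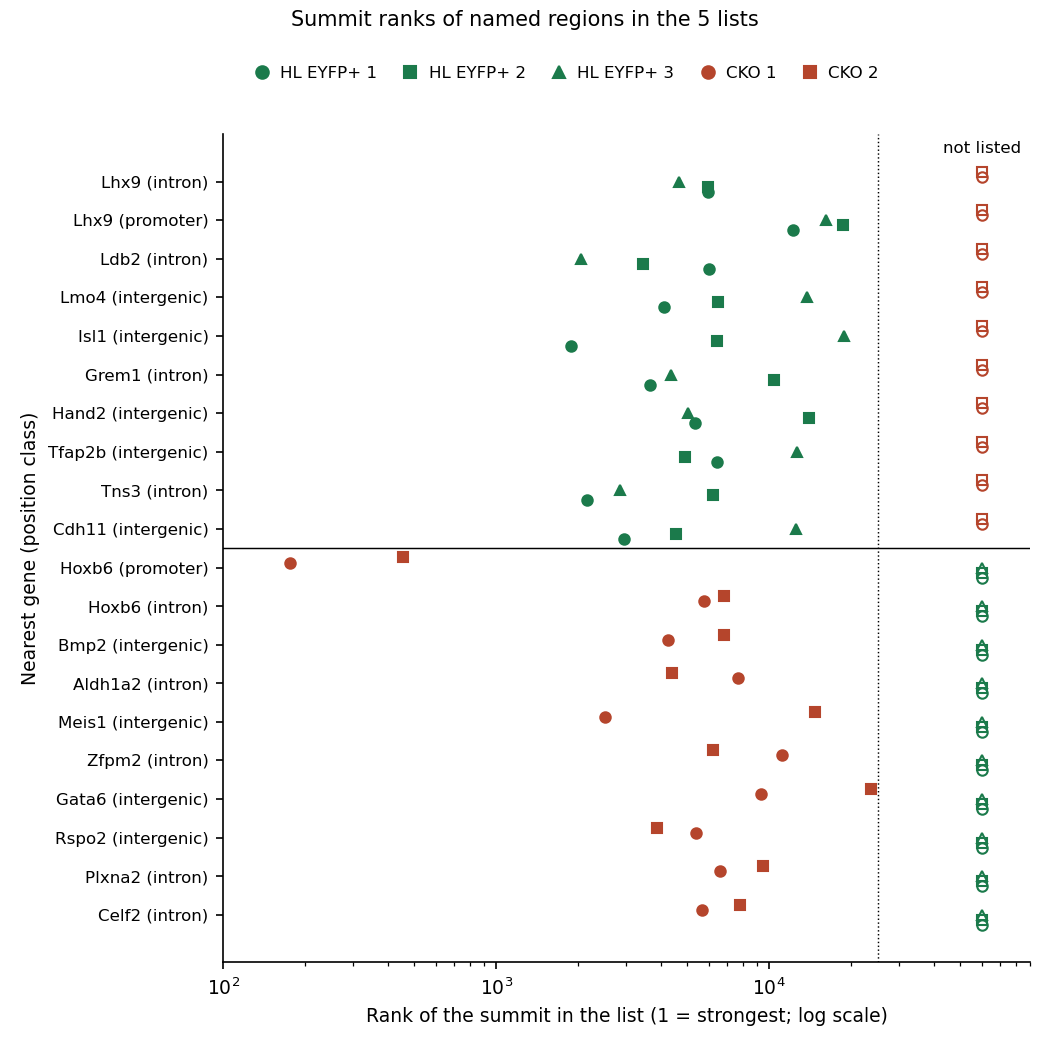
Rank of the summit (horizontal log axis, 1 the strongest, dotted line at 25000) in each of the 5 lists for named regions labelled by nearest gene, HL EYFP+-only above the line and CKO-only below it. Filled symbols are ranks, green for HL EYFP+ and red for CKO with 1 shape per sample, open symbols at the right mark lists without the region, and the Hoxb6 promoter stands furthest left at 175 and 457.

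LIM-homeodomain genes and their cofactors were the genes nearest to 13 HL EYFP+-only and 4 CKO-only regions of 91, or 14.3% and 4.40%, beside 5.71% and 7.89% of all regions. limma called 4 of the 91 higher in HL EYFP+ and 7 higher in CKO, beside 1.29% and 2.94% of all regions. The median difference in rank score of the 91 was 0.01, as over all regions. Lhx9, a LIM-homeodomain gene of the distal mesenchyme, had 2 HL EYFP+-only regions of 4. Its intron region ranked 5980, 5951 and 4665 in HL EYFP+ and was in neither whole CKO list (difference in rank score 0.78 ± 0.07 (SE), adjusted p = 0.0233, limma). All 3 HL EYFP+ values lay in the upper part of their lists. The promoter region of Lhx9 ranked 12233, 18654 and 16201 in HL EYFP+, and CKO 1 held it at rank 29208 of its whole list (0.37 ± 0.10, adjusted p = 0.141). A Lhx9 region 105888 bp downstream went the other way, at ranks 3711 and 8863 in CKO and 24313 in HL EYFP+ 3, the only HL EYFP+ list of 25000 with it (adjusted p = 0.0273). The promoter of Lhx2, its close relative, was in all 5 lists, at ranks 6499, 5004 and 3825 in HL EYFP+ and 4372 and 6727 in CKO (0.02 ± 0.08, adjusted p = 0.935). Those ranks overlapped between the groups.

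Other genes of this list, and 2 genes of hindlimb identity, had regions far from their starts. Ldb2, which encodes a cofactor that binds LIM domains, had an HL EYFP+-only region 255.8 kb upstream, inside D5Ertd615e, at ranks 6017, 3454 and 2039 (0.85 ± 0.08, adjusted p = 0.0236), and a CKO-only region in its own intron at ranks 13879 and 9106. Lmo4, which encodes a LIM-only protein, had 4 HL EYFP+-only and no CKO-only regions of 17, the best ranks being 4117, 6504 and 13760 at 18.6 kb upstream. Isl1, needed to start the hindlimb field, had 3 HL EYFP+-only regions and 1 CKO-only region of 19. The best of them ranked 1878, 6444 and 18726, a spread within HL EYFP+ that left the difference at an adjusted p of 0.223. Tbx4, a hindlimb T-box gene, had an HL EYFP+-only region (7649, 10781 and 3350) and a CKO-only region (5761 and 12318) in the same intergenic stretch, 21.3 and 20.7 kb from its start, each with a summit of the other group within 1 kb. The list of limb identity genes as a whole had 5 HL EYFP+-only and 2 CKO-only regions of 40, or 12.5% and 5.0% beside 5.71% and 7.89% of all regions, and limma called 2 and 3 of the 40 beside 1.29% and 2.94% of all.

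Limb mesenchyme genes were nearest to 11 HL EYFP+-only and 5 CKO-only regions of 109, or 10.1% and 4.59%, beside 5.71% and 7.89% of all. In limma none of the 109 was called higher in HL EYFP+ and 4 higher in CKO, beside 1.29% and 2.94% of all regions. Tfap2b, an AP-2 gene of the limb bud, had the HL EYFP+-only region printed above at ranks 6462, 4920 and 12692 (adjusted p = 0.0536), and the nearest summit of a CKO list was 72100 bp away. A Tfap2b region 247.2 kb from the start was CKO-only. Fgf10, the mesenchymal FGF that keeps the ectodermal ridge going, had 2 HL EYFP+-only regions, at best 6402, 7463 and 23101, and a CKO-only region at its promoter at ranks 15781 and 13828, with an HL EYFP+ summit 499 bp away. Msx2, a BMP-responsive homeobox gene, had 1 region of each kind.

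Genes of anteroposterior patterning had 13 HL EYFP+-only and 16 CKO-only regions of 197, or 6.6% and 8.12%, close to the 5.71% and 7.89% of all. limma called 8 and 5 of the 197, beside 1.29% and 2.94% of all regions. Grem1, the BMP antagonist that links SHH to the ridge, had an HL EYFP+-only region inside Fmn1 at ranks 3666, 10422 and 4375 (0.75 ± 0.11, adjusted p = 0.0372), and 2 CKO-only regions, the better of them at 13262 and 5612. Hand2, which acts upstream of Shh, had 2 regions of each kind of 16. Its better HL EYFP+-only region, 186.8 kb upstream, ranked 5333, 14038 and 5052, while a CKO-only region 13.4 kb from its start ranked 5815 and 6051 with an HL EYFP+ summit 278 bp away. Bmp2 had a CKO-only region 240.9 kb upstream at ranks 4245 and 6831 (−0.78 ± 0.07, adjusted p = 0.0233) and an HL EYFP+-only region on its other side at 6518, 12241 and 12987. Regions near the same gene thus moved both ways.

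Genes of the proximodistal axis had 10 HL EYFP+-only and 16 CKO-only regions of 120, or 8.33% and 13.3% beside 5.71% and 7.89% of all regions. limma called 2 and 4 of the 120, beside 1.29% and 2.94% of all. Aldh1a2, which encodes the enzyme that makes retinoic acid, had 2 CKO-only regions of 5 and none the other way. The better one, in its intron, ranked 7669 and 4404 and was in no HL EYFP+ list (−0.76 ± 0.07, adjusted p = 0.0236). Meis1 and Meis2, proximal homeobox genes, had 3 CKO-only regions each and 2 HL EYFP+-only regions each. The best CKO-only region of Meis1 ranked 2508 and 14652 (adjusted p = 0.110), and its HL EYFP+-only intron region ranked 4175, 10907 and 8774 (adjusted p = 0.0408). The list of Hox genes, which held Hoxb6 and Hoxb7 beside posterior genes such as Hoxa13, had 17 regions. Of these 2 were CKO-only, both at Hoxb6, and none was HL EYFP+-only. The other Hox genes of the list, the posterior ones included, had no region of either direction.

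The Hoxb6 promoter was one of the strongest CKO-only regions, at ranks 175 and 457, and no whole HL EYFP+ list had it. A second region in a Hoxb6 intron ranked 5754 and 6851. Over all samples the promoter was listed in 5 of 5 E10.25 CKO samples at ranks 324 to 3273, in 7 of 8 controls of the overexpression cross at 6408 to 19982 and in 5 of 6 Etv2-overexpressing samples at 11771 to 28379. It was in none of the FL EYFP+, E10.25 wild-type, E9.5, posterior or anterior samples. The HoxB6-Cre driver carries Hoxb6 sequence, and reads from the driver and from the gene cannot be told apart in these lists. The labels do not give the Cre genotype of the controls. For embryos of that cross used in other assays the study writes the controls as HoxB6-Cre +/+ and the overexpressors as HoxB6-Cre Tg/+, so it is not known here whether the 7 control samples with the summit carried the driver.

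FGF genes had 6 HL EYFP+-only and 8 CKO-only regions of 103 (5.83% and 7.77%), beside 5.71% and 7.89% of all regions. BMP genes had 3 and 6 of 108 (2.78% and 5.56%), and Wnt genes 9 and 12 of 109 (8.26% and 11%). Among the Wnt agonists Rspo2 had a CKO-only region 172.0 kb from its start at ranks 5388 and 3875 (−0.81 ± 0.07, adjusted p = 0.0233), and Rspo3 had an HL EYFP+-only region at 2106, 3363 and 11117 (adjusted p = 0.0524). Spry1, an FGF-induced inhibitor, had a CKO-only region at ranks 10822 and 11242 (adjusted p = 0.0259). Sox9, the cartilage master gene, had 1 HL EYFP+-only region 133.0 kb upstream (4734, 10000 and 5952, adjusted p = 0.0300) and 3 CKO-only regions. The cartilage list as a whole had 4 and 8 regions of 95 (4.21% and 8.42%).

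GATA factor genes had 1 HL EYFP+-only and 5 CKO-only regions of 29, or 3.45% and 17.2% beside 5.71% and 7.89% of all regions. limma called none of the 29 higher in HL EYFP+ and 2 higher in CKO, beside 1.29% and 2.94% of all. Zfpm2, which encodes a GATA cofactor, had the best of them in its intron, at ranks 11169 and 6212 (adjusted p = 0.0322). The 2 CKO-only regions of Gata6 ranked 9316 and 23612, and 18610 and 23611, a wide spread within CKO (adjusted p = 0.465 and 0.479). Beside the same 5.71% and 7.89%, ETS genes, the family of ETV2, had 3 and 4 regions of 66 (4.55% and 6.06%), endothelial genes 3 and 3 of 60 (5.0% each) and blood genes 1 and 2 of 24 (4.17% and 8.33%). Ectoderm genes had 5 and 4 of 43 (11.6% and 9.30%), muscle progenitor genes 2 and 4 of 35 (5.71% and 11.4%), neural genes 0 and 1 of 12 (0% and 8.33%) and p53 target genes 3 and 2 of 27 (11.1% and 7.41%). These lists hold few regions, so that 1 region moves a share by several points. Pax3, of muscle progenitors, had a CKO-only intron region at ranks 10627 and 10751 (adjusted p = 0.0256), and Met, the receptor that lets them migrate, one at 16239 and 11247 (adjusted p = 0.0682).

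Some genes were nearest to several regions of 1 direction. At least 2 HL EYFP+-only regions shared their nearest gene at 224 genes and at least 3 at 49, of 1459 genes nearest to such a region. For the more numerous CKO-only regions these were 414 and 118 of 1838 genes. The 30684 regions compared lay nearest to 13595 genes, and 5.71% and 7.89% of them were HL EYFP+-only and CKO-only. The genes below were picked for their counts, and several had many regions in all. Whether such regions cluster beyond these shares was not tested. Adgrl2, an adhesion receptor gene, and Cdh11, a cadherin of mesenchyme, had 45 and 25 regions. Of these 6 each were HL EYFP+-only, and 4 and 2 were CKO-only. Their farthest HL EYFP+-only regions lay 1017.0 and 529.0 kb from the start, and no HL EYFP+-only region of either was at a promoter. Tns3, a focal adhesion gene, had 5 HL EYFP+-only regions of 17, the best at ranks 2158, 6221 and 2841 (0.85 ± 0.08, adjusted p = 0.0236). Kif26b, Robo1 and Auts2 also had 5, beside 3, 4 and 1 CKO-only regions, of 23, 26 and 31 in all. The Kif26b region printed above ranked 3269, 22200 and 4394, with HL EYFP+ 2 far below the others (adjusted p = 0.348). On the CKO side Plxna2, a semaphorin receptor gene, had 7 of 20 and no HL EYFP+-only region. The one printed above ranked 6626 and 9500 (−0.68 ± 0.07, adjusted p = 0.0246). Nr2f1, an orphan nuclear receptor gene, had 6 CKO-only and 3 HL EYFP+-only regions of 29, 2 of the latter being adjacent and sharing the same summits. Celf2 had 5 and 3 of 17. Pde4d and Cwc22 had 6 CKO-only regions each, of 29 and 16. Cwc22 lies in a segment whose copy number varies between mouse strains, and the part of this in its 6 regions was not tested.

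The strongest single regions were not limb genes. The best HL EYFP+-only region, 16.3 kb from Gsta4, ranked 503, 556 and 786 and had a CKO summit 208 bp away. The best CKO-only region, 21.6 kb from Igf2bp3, an RNA-binding protein gene, ranked 65 and 78, and no HL EYFP+ summit lay within 18.4 kb. At Ensa both kinds occurred within the promoter, at ranks 1448, 822 and 205 in HL EYFP+, 242 bp downstream of the start, and 402 and 664 in CKO, 116 bp upstream. Here 2 summits of the same accessible promoter were ranked in different places. A summit of the other group lay within 1 kb of 263 HL EYFP+-only regions (15.0%) and of 443 CKO-only regions (18.3%), and 53.2% and 44.5% of those were promoters, against 11.9% and 3.74% of the rest. Without them 1489 and 1978 regions remained. In the whole lists of the other group 1332 (76.0%) and 1506 (62.2%) were still missing.

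Regions of either direction lay away from promoters. Promoters, taken as 1 kb around a start, made up 18.1% of HL EYFP+-only regions and 11.2% of CKO-only regions. Their share was 41.4% of all regions compared and 63.6% of regions in all 5 lists. Introns held 36.8% and 39.2%, intergenic sequence 42.4% and 47.2% and exons 2.74% and 2.44%. The median distance to the nearest start was 48.7 kb for HL EYFP+-only regions, 66.8 kb for CKO-only regions and 135.0 bp for regions in all 5 lists. The median GC content was 49.5%, 47.0% and 61.5%. These are descriptions of the regions chosen. Over the whole lists of 25000, promoter shares overlapped between the groups, at 41.0, 43.5 and 44.3% in HL EYFP+ and 42.2 and 42.5% in CKO (p = 0.7, exact permutation test).

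**Figure D2:**
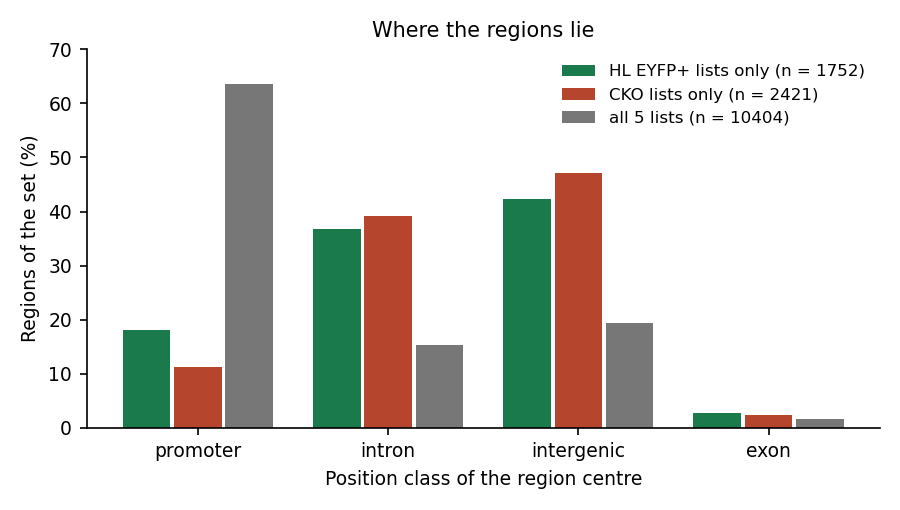
Share (%) of regions at promoters, in introns, in intergenic sequence and in exons, for HL EYFP+-only regions (green), CKO-only regions (red) and regions in all 5 lists (grey), counted once per region with no error bar. Promoters make up 18.1%, 11.2% and 63.6%.

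The sequence of the regions differed by direction in several short words. Each word was searched on both strands of the 200 bases, and a match is only that word and not a bound site. The LIM-homeodomain word TAATTA was in 18.6% of HL EYFP+-only regions, 9.79% of CKO-only regions and 8.34% of all regions compared. The ISL1-type word was in 31.6%, 22.4% and 17.7%. At least 1 of these words was in 42.8% of HL EYFP+-only regions against 29.6% of CKO-only regions and 23.4% of all. The E-box CATCTG was in 24.5%, 18.4% and 16.5%, and TAATTA occurred together with it in 4.62%, 1.69% and 1.90%. All regions compared held more promoters and more GC than either direction, and the part of this in the shares was not tested. Outside promoters TAATTA was in 22.2% of HL EYFP+-only and 10.9% of CKO-only regions, and the ISL1-type word in 37.8% and 24.3%.

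CKO-only regions were marked by other words. TGACAG was in 25.7% of them, 11.6% of HL EYFP+-only regions and 14.1% of all regions. AGGTCA was in 25.5%, 11.4% and 12.8%, the GATA word in 22.1%, 11.5% and 10.1%, and TGATTNAT in 11.6%, 4.45% and 4.57%. At least 1 of these 4 was in 61.4% of CKO-only regions, 34.2% of HL EYFP+-only regions and 34.0% of all. Pairs of them were also more frequent in CKO-only regions, with TGACAG and the GATA word together in 6.61% against 0.970%, and TGACAG and AGGTCA in 5.53% against 1.14%. The Aldh1a2 region printed above holds all 4. The HOX13-type word (TTTATGG or TTTATTG) was in 16.2% of CKO-only and 10.4% of HL EYFP+-only regions, and the TCF/LEF word (CTTTGAA or CTTTGAT) in 15.0% and 9.36%. The TEAD word GGAATG was in 15.7% and 11.2%.

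The ETV2 word had similar shares in both directions. It was in 10.9% of HL EYFP+-only regions and 11.5% of CKO-only regions. Both shares were above the 9.23% of all regions and the 7.96% of regions in all 5 lists. Outside promoters the shares were 11.8% and 12%, and among regions without a nearby summit of the other group they were 11.2% and 11.8%.

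**Figure D3:**
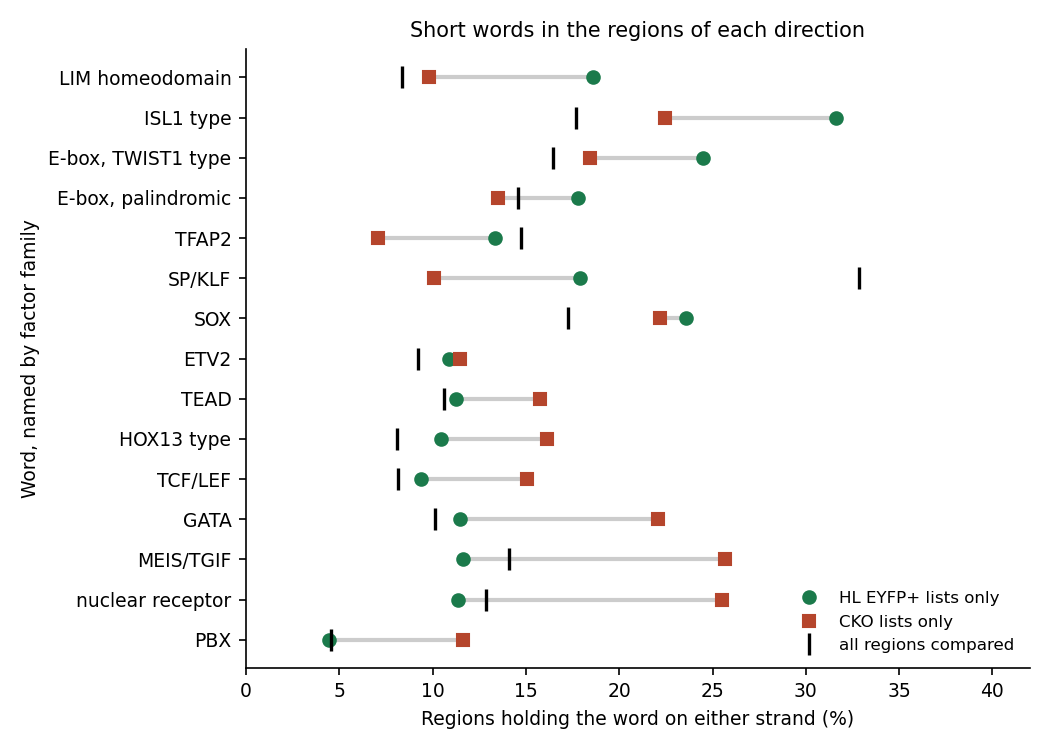
Share (%) of HL EYFP+-only regions (green circles), CKO-only regions (red squares) and all regions compared (black ticks) that hold a word on either strand, with words named by factor family on the vertical axis and a grey line joining the 2 directions. The circles lie to the right of the squares for words including LIM homeodomain, ISL1 type, TFAP2 and SP/KLF. The squares do so for words including GATA, MEIS/TGIF, nuclear receptor and PBX. For TFAP2 and SP/KLF the circles lie left of the ticks, at 13.4% against 14.7% and 17.9% against 32.8%. Both lie side by side for the ETV2 word (10.9% and 11.5%).

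The same words were then counted in every summit window of each list. These windows lie on the summits that defined the regions, and they include the HL EYFP+-only and CKO-only regions. The counts are therefore not evidence apart from those regions. TGACAG was in 12.4, 12.9 and 12.9% of the windows of HL EYFP+ lists and 16.2 and 15.8% of those of CKO lists. AGGTCA was in 11.4, 11.1 and 11.4% against 14.4 and 13.9%, the GATA word in 9.34, 9.16 and 8.53% against 11.2 and 10.6%, and TGATTNAT in 3.72, 3.54 and 3.68% against 4.87 and 5.05%. In each of these 4 words both CKO samples lay above all HL EYFP+ samples (p = 0.1 each, the smallest possible here, exact permutation test, two-sided, adjusted p = 0.3125). In whole lists the GATA difference shrank from −1.89 to −0.90 percentage points (exact permutation p = 0.3). TAATTA was in 9.33, 7.73 and 8.84% of HL EYFP+ windows and 6.20 and 6.87% of CKO windows (exact permutation p = 0.2), and the ISL1-type word in 18.9, 16.6 and 17.2% against 15.6 and 15.7% (p = 0.2). These did not overlap either at 25000 summits. At 10000 summits the differences shrank from 2.09 to 1.07 points for TAATTA (exact permutation p = 0.3) and from 1.86 to 0.88 points for the ISL1-type word (p = 0.8). The ETV2 word was in 9.62, 8.65 and 8.61% against 9.32 and 8.85%, overlapping values (exact permutation p = 0.8). Of 25 words 15 did not overlap between the groups, 6 of them higher in HL EYFP+ and 9 higher in CKO, and none could pass an adjusted p of 0.05 with 3 against 2 samples.

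**Figure D4:**
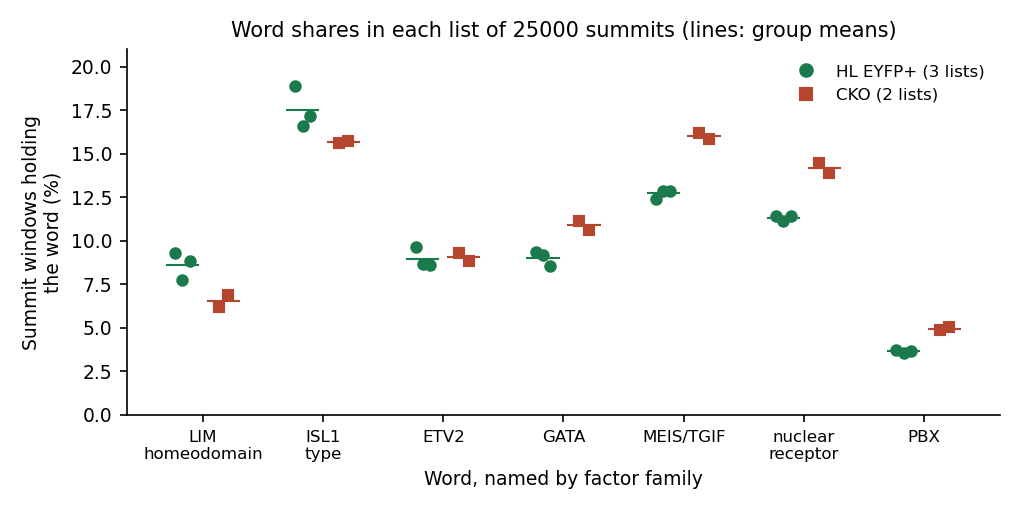
Share (%) of the 25000 summit windows of each list that hold a word, for 7 words named by factor family, with 1 green circle per HL EYFP+ sample, 1 red square per CKO sample and a line at each group mean. The groups are apart for every word shown except the ETV2 word.

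Samples that took no part in the definition showed where else these regions were listed. Read at 15000 summits per list, E10.25 wild-type posterior hindlimb held 20.4 and 19.5% of the HL EYFP+-only regions, and the 5 E10.25 CKO samples held 10.8, 7.02, 13.6, 11.8 and 10.27%. The groups did not overlap (20.0 ± 0.65% against 10.7 ± 2.41% (SD), n = 2 and 5, p = 0.0476, exact permutation test, two-sided, the smallest possible). Of the CKO-only regions E10.25 wild type held 4.54 and 4.79% and E10.25 CKO 13.7, 7.89, 9.05, 13.1 and 16.7% (4.67 ± 0.18% against 12.1 ± 3.6%, exact permutation p = 0.0476, adjusted p = 0.0476 over the 2 tests). Regions in all 5 lists were held at 80.4% and 74.3% on average (exact permutation p = 0.429). E10.25 CKO 2 and 4 had short lists of 15626 and 19734 summits and held 63.0 and 65.6% of those common regions. Without these 2 the differences were 8.43 and −8.48 percentage points (exact permutation p = 0.1 and 0.2, where 0.1 is the smallest possible). Without regions that had a nearby summit of the other group they were 9.23 points (exact permutation p = 0.0476) and −6.93 points (p = 0.0952). In their labels both wild-type samples share a date and each CKO sample has its own, so date and genotype cannot be told apart. Among word shares between E10.25 wild type and CKO the smallest p was for TGACAG, at 11.01 to 11.11% against 11.2 to 12.8%, which did not overlap (exact permutation p = 0.143, adjusted p = 0.932). Mean shares were 2.90% against 2.46% for TAATTA and 8.08% against 7.97% for the ISL1-type word (exact permutation p = 0.571 and 0.810). They were 8.26% against 8.78% for AGGTCA and 1.64% against 1.89% for TGATTNAT (exact permutation p = 0.571 and 0.476). The GATA word was higher in wild type, at 6.24% against 5.97% (exact permutation p = 0.857), the reverse of E10.5. All of these overlapped between the groups.

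The other samples labelled E10.5 held more of the HL EYFP+-only than of the CKO-only regions. FL EYFP+ samples, whose labels carry the same 3 numbers as the HL EYFP+ samples and which may not be independent of them, held 44.0 to 48.8% of the former and 2.64 to 3.59% of the latter. The 8 controls of the overexpression cross held 28.8 to 40.8% and 4.38 to 5.58%, and the 6 Etv2-overexpressing samples 28.4 to 37.4% and 4.63 to 6.4%, ranges that overlapped. For that cross the methods describe doxycycline given to the dams and harvest at stages later than the labels give, so the stage of these samples is uncertain, and their labels number them in pairs marked A and P. Shh-EGFP+ posterior cells held 27.1% and 6.36%, and anterior hindlimb, whose list of 13763 summits was shorter, 16% and 4.13%. E9.5 hindlimb held about as much of one kind as of the other, 15.5% and 15.4%. Among the printed regions, those of Kif26b, Tfap2b and Grem1 were in every FL EYFP+, control and Etv2-overexpressing whole list and in none of the 5 E10.25 CKO lists. Of the 2 E10.25 wild-type lists, however, 0, 2 and 1 held them, and the E9.5 list held none. The Lhx9 intron region was in 7 of 8 control, both E10.25 wild-type and 1 of 5 E10.25 CKO lists. It was also in every FL EYFP+ and Etv2-overexpressing list and not in the E9.5 list. The Plxna2 and Celf2 regions were in 4 of 5 E10.25 CKO lists, both E10.25 wild-type lists and the E9.5 list, and in no FL EYFP+, control or Etv2-overexpressing list. The Aldh1a2 region was in 2 of 5 E10.25 CKO lists and the E9.5 list only. Other CKO-only regions printed above went another way. That of Bmp2 was in 3 of 3 FL EYFP+, 6 of 8 control, 2 of 6 Etv2-overexpressing and 5 of 5 E10.25 CKO lists, and that of Met in 2 of 3 FL EYFP+ and 2 of 5 E10.25 CKO lists.

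**Figure D5:**
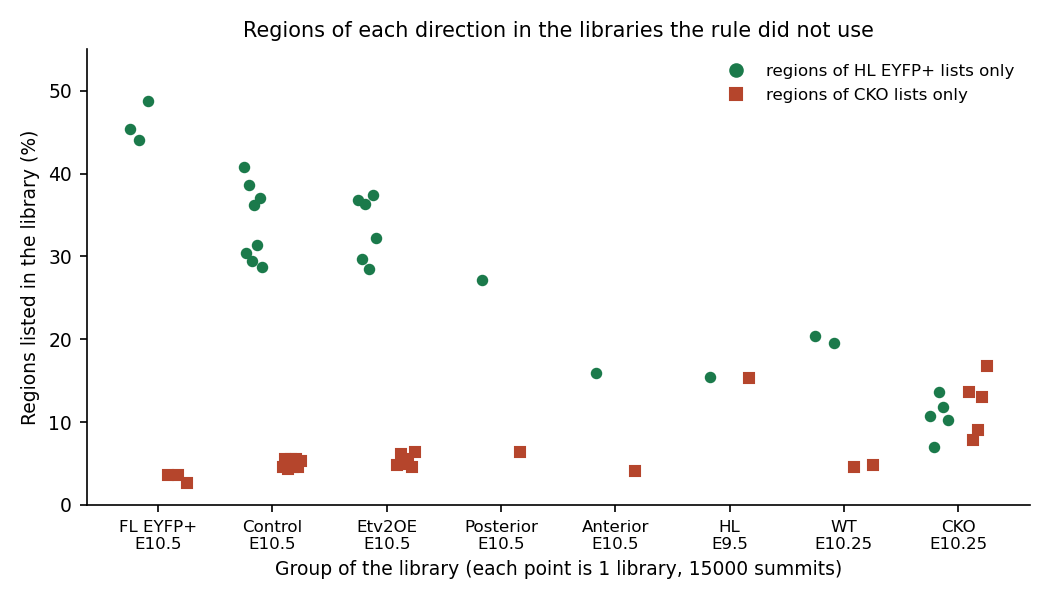
Share (%) of HL EYFP+-only regions (green circles) and of CKO-only regions (red squares) held by each sample outside the comparison at 15000 summits per list, 1 point of each kind per sample, by group and labelled stage. The circles are highest in FL EYFP+ at 44.0 to 48.8%, and the squares are highest in E9.5 hindlimb and E10.25 CKO.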

How the data were processed

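ATAC-seq had been run on 3 HL EYFP+ and 2 CKO samples, among 32. The authors aligned reads to mm10 with Bowtie2 2.2.4, removed duplicates with Picard, shifted read starts to the centre of transposase binding and called peaks per sample with MACS2 (version not given in the sources used here), and the deposited lists give each summit with its −log10 q-value. No reads were used, so depth is unknown and limits how far an absent summit can be read.

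Lists were ordered by that value and cut to 25000. Regions of 200 bp held by at least 2 lists were kept, and regions whose sequence was repeated in tandem nearby, resembled mitochondrial DNA or shared words with such repeats were set aside. Nearest genes and position classes came from GENCODE M21. Rank scores were compared with limma 3.58.1 in R 4.3.3 with Benjamini-Hochberg adjustment, tested on simulated data. Shares per list were compared by exact permutation tests, two-sided. Other steps used Python 3.11.15, pandas 2.3.3 and pysam 0.24.0. The members and gene lists were chosen with earlier results of these data known. Genes named were those nearest the 10 best-ranked regions per direction, up to 4 per gene list, the 10 with most regions (at least 3), and Lhx2, Lhx9, Hoxb6, Etv2 and Shh. Alternatives were list lengths, distances, interval widths, the deposited value, a replicate block and leaving out each sample.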

Additional observations from a re-analysis of the deposited data

How the results depend on the processing

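Fewer summits per list gave fewer regions. HL EYFP+-only regions numbered 585 at 10000 summits, 898 at 15000 and 2774 in whole lists, and 2696 to 3211 with 1 sample left out. CKO-only regions numbered 977, 1452 and 2427, so that in whole lists they were fewer than the HL EYFP+-only regions, the reverse of 2421 against 1752. They numbered 1506 when absent from whole HL EYFP+ lists, and 2890 to 5580 with 1 sample left out, the highest values being those with 1 CKO list, where fewer lists are required. limma calls higher in HL EYFP+ and in CKO numbered 86 and 284 on the quantile-normalized log2 value, 56 and 230 at 10000 summits, 158 and 451 at 15000, and 734 and 758 in whole lists, where the excess in CKO of 903 against 397 was nearly lost. With 1 sample left out they ranged from 0 to 369 and from 0 to 455. With the label number as a replicate block limma called 0 and 0 (2678 and 2797 at an unadjusted p under 0.05), and the numbers did not pair the samples (correlations −0.0116 and 0.0244).

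The difference in ETV2 word share, HL EYFP+ minus CKO, was −0.125 points and became 0.205 in whole lists, 0.184 in wider windows and 0.00896 when standardized for GC content, and −0.456 to 0.109 with 1 sample left out. In whole lists the difference in median GC went from 0.833 to −0.5 points and that in promoter share from 0.641 to −2.73, and the latter ranged from −0.030 to 1.6 with 1 sample left out. For E10.25 wild type minus CKO, the share of HL EYFP+-only regions differed by 9.28 points, and by 3.70 at 10000 summits (exact permutation p = 0.0476), 34.0 in whole lists (exact permutation p = 0.143), 8.43 without both short lists and 8.36 to 10.0 with 1 sample left out. For CKO-only regions it differed by −2.80 at 10000 summits (exact permutation p = 0.0952), −7.78 in whole lists (exact permutation p = 0.762), −8.48 without both short lists, −6.93 without nearby summits of the other group, and −8.46 to −6.25 with 1 sample left out. Leaving out 1 of these samples leaves smallest possible p-values above 0.05. The settings without short lists, without nearby summits and with absence from whole lists were chosen after seeing the data. The cause of these changes was not tested.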
